A study of Mus musculus with 38 samples.

Results

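RNA of VM-3055 cells was compared with RNA of MYC-2983 cells, both cultured with doxycycline (Dox). Libraries were chosen by their genotype and Dox labels, and the comparison holds 8 of the 38 mouse libraries of the series, 4 of each line. Both lines were derived from kidney tumours of mice in which a Dox-dependent activator under the Ksp-cadherin promoter, active in renal tubule cells, drives a Tet-O-Myc transgene (genotype MYC+). The VM-3055 line also carries deletion of floxed Vhl by a tamoxifen-induced Cre under the same promoter (genotype Vhl-/-; MYC +), and neither line carries the Ink4a/Arf deletion of the third genotype, VIM. Cells were kept on Dox until collection the day after plating. The labels give the genotype of the VM libraries but not the line number, which was taken from the study. Each genotype is represented by 1 line, so Vhl deletion cannot be told apart from any other difference between these lines. The lines also differ in their J numbers in the titles (J31 to J34 and J55 to J58), whose meaning the labels do not give, and in depth, 14.4 to 17.3 M estimated reads for VM-3055 and 24.8 to 26.9 M for MYC-2983, which likewise cannot be told apart from genotype. No label states that replicates came from separate cultures, so p-values measure the spread between libraries, which may be technical.

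The product of Vhl is the substrate-binding part of a ubiquitin ligase that marks the alpha subunits of hypoxia-inducible factor (HIF) for degradation after the EGLN prolyl hydroxylases have modified them. When it is lost, HIF accumulates in normal oxygen and drives genes of glycolysis, angiogenesis and mitophagy, and loss of VHL is the founding event of most clear cell renal carcinomas. MYC is a transcription factor that raises expression of genes for growth, ribosome production and metabolism.

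Values are gene-level RSEM estimates scaled by the authors to an upper quartile of 1000 in each library, and are given here as units. The worth of 3 reads, between 1.57 and 2.63 units across the 8 libraries, was taken as a floor below which a gene is barely detected. Differences are log2 differences of value + 1 with the standard error (SE) and a Benjamini-Hochberg adjusted p from limma, coded as VM-3055 minus MYC-2983. Passing required both a difference beyond 1 in either direction and an adjusted p below 0.05. The scale of value + 1 understates the difference of genes that are low in one line.

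To check the labels, the engineered genes were read first. Vhl (chromosome 6, 113573953 to 113581627 in mm9) had 10.3, 14.5, 12.7 and 14.9 units in the VM-3055 libraries and 461, 455, 456 and 433 units in the MYC-2983 libraries. Every VM-3055 library was far below every MYC-2983 library, with a linear ratio of 34.4 between the means and a log2 difference of −5.01 (SE 0.119, adjusted p = 2.16e-13). The two-sided exact permutation test gave p = 0.0286, the smallest value that 4 against 4 libraries allow. Myc (chromosome 15, 61816946 to 61821929) had 405, 413, 338 and 380 units in VM-3055 and 699, 693, 651 and 661 units in MYC-2983 cells. The lines did not overlap (exact permutation p = 0.0286), but the log2 difference of −0.82 did not reach the size required to pass. In libraries from which Dox was withdrawn the Myc means were higher, at 1364 units in VM-3055 and 1831 in MYC-2983 cells. This order is opposite to that of a Dox-induced transgene. Reads were counted on mouse genes, and whether reads of the transgene fall on the Myc row is not given. The Myc row therefore neither bears out nor contradicts the Dox labels. The study reported by immunoblot that MYC protein depended on Dox in both lines. Reads of the transgene and of the native gene cannot be told apart in this table, and the cause was not tested. Cdkn2a, which encodes INK4A and ARF and is intact in both genotypes, had 3804 ± 360 units in VM-3055 and 3171 ± 102 in MYC-2983 cells (SD, n = 4), without overlap (exact permutation p = 0.0286). Its log2 difference of 0.26 did not reach the size required to pass.

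Of 14779 genes tested, 3634 passed (24.6%), 966 higher (6.54%) and 2668 lower (18.1%) in VM-3055 cells. The median over all genes tested was −0.19. The balance between the directions depended on the scaling and on the filter. Higher genes made up 26.6% of those that passed with the authors' scaling, 32.1% with TMM rescaling and 52.1% with quantile normalization, and the median over all genes moved to −0.05 and 0.06. The filter also admitted genes above 0 only in the 4 libraries of 1 line. Lower genes numbered 2260 to 2290 without a MYC-2983 library and 2640 to 2723 without a VM-3055 library. Higher genes numbered 953 to 962 and 890 to 911 in the same fits. The part of the deeper MYC-2983 libraries was not tested. Counts of list members below are read against the 6.54% higher and 18.1% lower over all genes tested. Members and lists were chosen with earlier results of these data known, so their shares are descriptions and not tests. Examples from each list are given with their values, including members that did not pass.

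Of 13 genes for HIF subunits, hydroxylases and the VHL ligase partners, all tested, 2 passed higher and 1 lower in VM-3055 cells. Egln3, the prolyl hydroxylase that is itself a HIF target, had 4286, 4452, 4384 and 4397 units in VM-3055 against 187, 220, 206 and 192 units in MYC-2983 cells. This is a linear ratio of 21.7 and a log2 difference of 4.44 (SE 0.0462, adjusted p = 1.26e-16), with each VM-3055 library above all MYC-2983 libraries. Egln1, the main oxygen sensor, had 2930 ± 122 units in VM-3055 and 1286 ± 23.0 in MYC-2983 cells (SD, n = 4) and passed with a log2 difference of 1.19. The constitutive Egln2 had 562 and 851 units and did not pass. Among the alpha subunits, Hif1a had 1656 ± 85.8 units in VM-3055 and 3239 ± 142 in MYC-2983 cells, a log2 difference of −0.97 that fell just short of the threshold. Epas1, which encodes HIF2-alpha, was low in both lines, at 14.6 and 9.34 units, and did not pass. Hif3a, whose product can oppose the other alpha subunits, passed lower in VM-3055 cells, at 12.8 against 53.5 units, but not with quantile normalization.

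Of 46 HIF target genes outside glycolysis, 45 were tested and 8 passed higher (Car9, Tgfa, Bnip3, Vegfa, Bnip3l, Apln, Higd1a and Ak4), 7 passed lower and 30 did not pass, with a median of 0.30. Car9, a carbonic anhydrase of the cell surface used as a marker of HIF activity, had 302, 258, 267 and 298 units in VM-3055 and 8.39, 8.70, 13.5 and 14.2 units in MYC-2983 cells. The lines did not overlap, and the log2 difference was 4.57 (SE 0.168, adjusted p = 1.66e-11). Bnip3, which directs mitochondria to mitophagy, had 2874, 2691, 3074 and 3165 units against 335, 331, 377 and 332 units, a log2 difference of 3.10 (SE 0.0546, adjusted p = 1.4e-14). Its relative Bnip3l had 3717 ± 186 units against 1316 ± 49.5 (SD, n = 4). Vegfa, the main angiogenic ligand, had 2659, 2625, 2524 and 2569 units in VM-3055 and 663, 657, 639 and 689 units in MYC-2983 cells, a linear ratio of 3.92 and a log2 difference of 1.97 (SE 0.0325, adjusted p = 7.96e-15). Tgfa, a ligand of the EGF receptor, had 197 ± 2.78 units against 20.8 ± 4.07, and the vascular peptide gene Apln had 1201 ± 79.4 against 428 ± 38.9. None of these genes had a library of one line within the range of the other.

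Other members of the HIF list were lower in VM-3055 cells. Cxcl12, a chemokine, had 2.23 units in VM-3055, at or under the floor in 2 libraries, against 124 ± 7.28 in MYC-2983 cells, and its receptor gene Cxcr4 was at 0 throughout VM-3055 against 3.25 to 6.81 units in MYC-2983. Plod1, a lysyl hydroxylase of collagen, had 51.1 against 437 units, and Angptl4, a secreted inhibitor of lipoprotein lipase, had 29.0 against 232 units. Edn1, Hmox1 and Ppp1r3c also passed lower, with log2 differences of −1.10, −1.07 and −1.91, of which Edn1 and Hmox1 no longer passed with TMM rescaling and none passed with quantile normalization. Ndrg1 had 1260 and 1076 units and P4ha1 2912 and 2849 units in VM-3055 and MYC-2983 cells, and neither passed. Ankrd37, Plod2 and Adm had log2 differences of 0.99, 0.91 and 0.72 and did not pass either, although Ankrd37 and Plod2 passed with TMM rescaling. With TMM rescaling 13 members passed higher and 5 lower, and with quantile normalization 13 and 4.

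The 250 bases before the gene start of 3 genes that passed higher are printed from RefSeq (GRCm38.p6, a later build than the mm9 of the values) to show where the core of the hypoxia response element lies. Capitals mark every ACGTG or GCGTG on either strand, so that CACGT and CACGC also count, and matches may overlap. Car9 (chr4:43506776-43507025, plus strand) holds 1 core, Bnip3 (chr7:138909507-138909756, minus strand) holds 5 and Slc16a3 (chr11:120948817-120949066, plus strand) holds 2.
Car9: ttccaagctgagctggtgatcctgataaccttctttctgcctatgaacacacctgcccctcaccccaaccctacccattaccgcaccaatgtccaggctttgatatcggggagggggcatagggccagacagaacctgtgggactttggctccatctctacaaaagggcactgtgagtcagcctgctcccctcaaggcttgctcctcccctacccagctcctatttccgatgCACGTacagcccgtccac
Bnip3: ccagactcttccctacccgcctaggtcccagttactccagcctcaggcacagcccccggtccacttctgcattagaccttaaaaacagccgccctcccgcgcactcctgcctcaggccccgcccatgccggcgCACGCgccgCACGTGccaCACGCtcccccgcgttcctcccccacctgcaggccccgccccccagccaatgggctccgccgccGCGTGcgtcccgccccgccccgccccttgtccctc
Slc16a3: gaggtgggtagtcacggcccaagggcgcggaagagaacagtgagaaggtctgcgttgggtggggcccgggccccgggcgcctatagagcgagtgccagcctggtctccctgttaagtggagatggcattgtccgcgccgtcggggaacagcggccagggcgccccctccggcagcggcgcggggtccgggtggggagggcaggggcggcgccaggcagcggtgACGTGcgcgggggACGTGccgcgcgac
Of the 17 hydroxylase, HIF target and glycolysis genes that passed higher, 16 had a RefSeq promoter, and 14 of these (87.5%) held a core in at least 1 annotated window. Of the 11 that passed lower on the target and glycolysis lists, 8 had a promoter and 6 (75%) held a core. The core was found for 6208 of 10355 tested genes with a promoter (60%) and in 45.7% of 18046 single windows, so a match by itself is common.

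All 29 genes of glucose uptake, glycolysis and lactate export were tested, 7 passed higher and 4 lower in VM-3055 cells, and the median was 0.47. With TMM rescaling 7 passed higher and 3 lower, and with quantile normalization 11 and 3. Ldhb, the lactate dehydrogenase subunit that favours pyruvate formation, had 11541, 11191, 11054 and 11446 units in VM-3055 and 988, 1066, 1093 and 1047 units in MYC-2983 cells, a linear ratio of 10.8 and a log2 difference of 3.43 (SE 0.0327, adjusted p = 9.87e-17). Ldha, the subunit that favours lactate, was the more abundant in both lines, at 57732 ± 1460 against 33306 ± 1018 units, and did not pass with a log2 difference of 0.79. Slc16a3, the hypoxia-inducible lactate exporter MCT4, had 10146, 10625, 9241 and 9484 units against 1466, 1396, 1478 and 1571 units, a log2 difference of 2.74 (SE 0.0453, adjusted p = 7.96e-15). Slc16a3 overlaps Csnk1d on the other strand. Slc16a1, which encodes the exporter MCT1, had 6149 and 6902 units and did not pass.

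Other members of the pathway were divided. Pdk1, which blocks entry of pyruvate into the mitochondrial cycle, had 5331 ± 155 units in VM-3055 and 1344 ± 37.4 in MYC-2983 cells (SD, n = 4), a log2 difference of 1.99. The liver-type phosphofructokinase Pfkl had 7648 ± 366 against 2529 ± 121 units, Pgk1 had 2869 ± 258 against 1106 ± 30.3, Tpi1 had 22976 ± 237 against 9000 ± 303, and the regulator Pfkfb3 had 1586 ± 77.5 against 708 ± 19.8 units. The muscle-type Pfkm had the opposite order, with 181 ± 22 against 1312 ± 27.0 units, as did the kinase Pdk2 with 33.1 ± 6.05 against 213 ± 33.8 units. The glucose transporter gene Slc2a1 did not pass (3607 and 2605 units), nor did Hk2 (2776 and 1944 units). Slc2a3, a second glucose transporter, was near the floor in VM-3055 cells at 2.45 ± 0.855 units against 253 ± 5.0 in MYC-2983. Aldoc passed lower with a log2 difference of −1.0, and no longer passed with TMM rescaling, quantile normalization or without several single libraries.

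**Figure D1:**
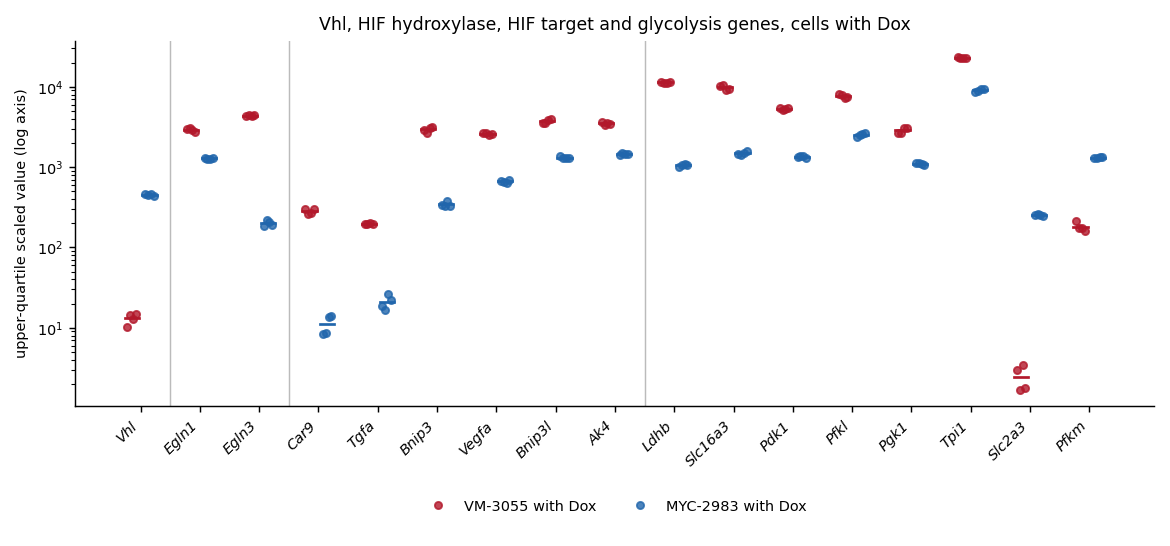
Upper-quartile scaled values, on a log axis, of Vhl, HIF hydroxylase, HIF target and glycolysis genes in each of the 4 VM-3055 (red) and 4 MYC-2983 (blue) libraries with Dox. Points are libraries and bars are means of 4; the lines do not overlap for any gene shown, with Vhl, Slc2a3 and Pfkm lower and the other genes higher in VM-3055.

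Some markers of renal tubule cells were expressed in both lines, while most segment markers were near the floor. Cdh16, the Ksp cadherin whose promoter drives the transgenes, had 3483 ± 20.5 units in VM-3055 and 8903 ± 625 in MYC-2983 cells (SD, n = 4), and passed lower with a log2 difference of −1.35. The renal transcription factor gene Pax8 (1945 and 2606 units) and the tubule receptor gene Lrp2 (4673 and 3740 units) did not pass. Of the 32 genes on the epithelial list, 30 were tested, 9 passed higher and 10 lower, and the median was −0.08. Keratin and claudin genes passed in both directions. Krt7 had 331, 320, 295 and 295 units in VM-3055 and did not exceed the floor in any MYC-2983 library, at least 185-fold higher when the floor is taken for MYC-2983. Krt19 had 205, 191, 197 and 189 units in VM-3055 against 0.559, 0, 0 and 2.10 in MYC-2983 cells.

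Krt8 and Krt18, the keratins of simple epithelia, had the opposite order. Krt8 had 13.3, 11.9, 9.34 and 6.14 units in VM-3055 and 291, 304, 291 and 287 in MYC-2983 cells, and Krt18 had 7.25 ± 3.63 against 217 ± 12.9 units. Cldn4 had 124 ± 4.33 units in VM-3055 against 1.89 ± 0.661, while Cldn3 stayed under the floor in VM-3055 and had 81.4 ± 12 units in MYC-2983 cells. The splicing regulators were likewise divided, with Esrp1 at 256 ± 13.7 against 14.4 ± 7.89 units and Esrp2 at 78.1 ± 7.68 against 252 ± 16.9. Epcam, the membrane protease gene St14, its inhibitor gene Spint1, Ocln and Ovol1 passed higher in VM-3055, with log2 differences of 1.20 to 3.23. The proximal tubule regulator Hnf4a (24.5 against 441 units), Prom1 (36.8 against 437) and the P-cadherin gene Cdh3 (476 against 3462) passed lower. Cdh1, which encodes E-cadherin, had 493 and 317 units and did not pass.

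Of 20 proximal tubule genes 9 were tested, 1 passed higher and 3 lower, and 10 were at or under the floor in all libraries of both lines. The water channel gene Aqp1 passed lower, with 238 against 1209 units. Of 20 genes of the loop, distal tubule and collecting duct, 9 were tested, 1 passed higher and 2 lower, and 14 were at or under the floor in both lines. The proximal genes summed to 4624 to 6056 units over the 8 libraries against 520190 or more in normal kidney, with Lrp2 making up most of the sum, and the distal genes to 21.4 to 73.4 against 97772 or more.

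Of 20 genes linked to epithelial-mesenchymal transition (EMT), all tested, 13 passed lower in VM-3055 cells, none passed higher and the median was −1.90. These counts were the same with TMM and quantile scaling, and the share of lower genes over all genes is the 18.1% given above. Acta2, smooth muscle actin, had 1.48, 0, 0.849 and 0.877 units in VM-3055 and 17135, 16828, 15668 and 18453 units in MYC-2983 cells. All VM-3055 libraries were under the floor for Acta2, which makes the level at least 6468-fold lower. Tagln, an actin-binding protein of smooth muscle, had 87.2, 103, 82.3 and 104 units against 17235, 16596, 15509 and 18952 units, a log2 difference of −7.49 (SE 0.0754, adjusted p = 9.87e-17). The EMT transcription factor genes Twist1 and Snai2 did not exceed the floor in any VM-3055 library, while MYC-2983 cells had 124 ± 9.49 and 47.9 ± 3.72 units.

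Other EMT genes were well expressed in both lines. Vim, the mesenchymal intermediate filament, had 9695, 10524, 9240 and 9391 units in VM-3055 and 24519, 23425, 23625 and 26023 units in MYC-2983 cells, a log2 difference of −1.33 (SE 0.0445, adjusted p = 6.49e-12). Cdh2, which encodes N-cadherin, had 1058 ± 44.4 against 5771 ± 276 units, and Zeb1 had 235 ± 25.6 against 610 ± 36.6 units. Fibronectin, Fn1, had 23692 ± 1379 and 21550 ± 2570 units, with overlapping libraries. Snai1 (147 and 151 units), Zeb2 (476 and 593), Twist2 (514 and 469) and S100a4 (1134 and 1452) did not pass.

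**Figure D2:**
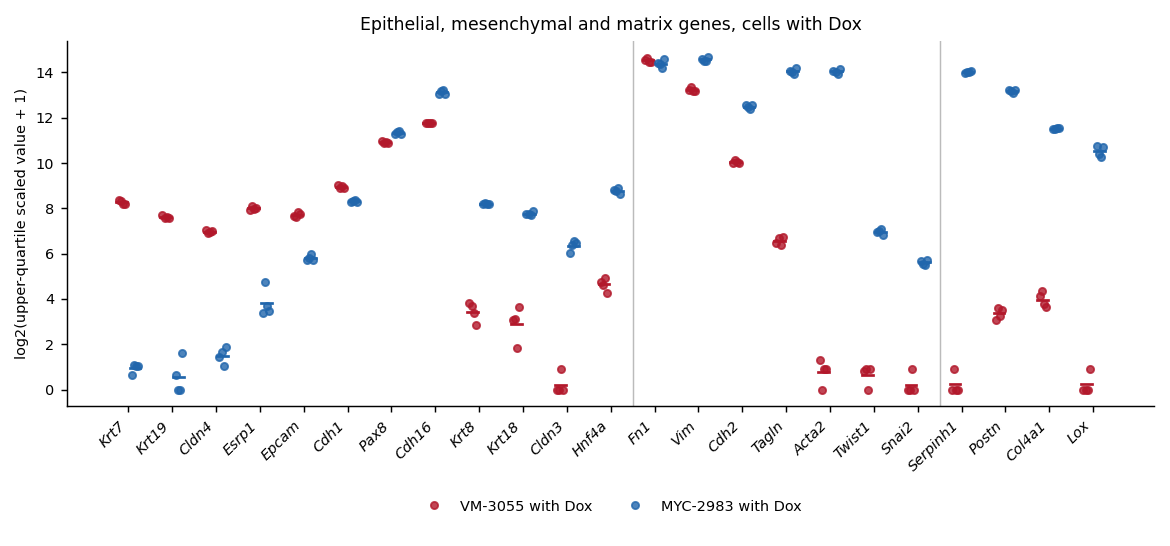
log2(value + 1) of epithelial (left), mesenchymal (middle) and matrix genes (right) in each of the 4 VM-3055 (red) and 4 MYC-2983 (blue) libraries with Dox, with bars for means of 4. Krt7, Krt19 and Cldn4 sit near 0 in MYC-2983 and Cldn3, Acta2, Twist1, Snai2, Serpinh1 and Lox near 0 in VM-3055, while Fn1 overlaps.

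Of 28 collagen genes listed, 27 were in the table and 26 tested, 18 passed lower and 2 higher in VM-3055 cells, and the median was −3.22. Col4a1, a basement membrane chain, had 16.3, 19.6, 12.7 and 11.4 units in VM-3055 and 2881, 2926, 3007 and 2958 units in MYC-2983 cells, a log2 difference of −7.55 (SE 0.124, adjusted p = 7.96e-15). Its divergently transcribed partner Col4a2, which overlaps it on the other strand, had 90.0 against 2347 units. The fibrillar chains Col1a1 and Col3a1 had 1.87 and 2.03 units in VM-3055 against 72.4 ± 13.1 and 113 ± 24.4 in MYC-2983 cells, but Col1a2 had 89.2 ± 11.2 and 92.8 ± 21.7 and did not pass. Col7a1, the anchoring fibril chain, passed higher at 487 ± 83.0 against 110 ± 27.2 units, and Col11a2 at 47.3 against 19.3 units.

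Serpinh1, Fkbp10 and Lox were among the 15 largest falls. Serpinh1, the collagen chaperone HSP47, had 0, 0.851, 0 and 0 units in VM-3055 and 16169, 16544, 16539 and 17010 units in MYC-2983 cells, at least 6295-fold lower. Fkbp10, a prolyl isomerase that serves the same folding route, had 0.212 against 1424 ± 83.6 units, and Lox, which crosslinks collagen and elastin, had 0.219 against 1488 ± 240 units. Of 24 matrix remodelling enzymes and inhibitors tested, 12 passed lower and 2 higher, with a median of −1.23. Mmp2, a gelatinase, was at 0 throughout VM-3055 against 280 ± 10.1 units in MYC-2983 cells. Adamts5 had 15.1 against 973 units and Loxl1 75.8 against 474 units. Plau, the urokinase activator of plasminogen, passed higher with 1885 ± 66.5 against 652 ± 69.3 units, and the collagenase gene Mmp13 with 11.7 against 0.813 units. Of 28 integrin and laminin genes tested, 8 passed lower and 3 higher. The 3 higher genes were the epithelial integrin Itgb6, at 558 against 144 units, and the laminin chains Lamb3 and Lama3, at 211 against 59.6 and 22.6 against 1.46 units.

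Markers of other cell types moved with the matrix genes in part. The fibroblast list itself holds the collagen genes Col1a1, Col1a2, Col3a1 and Col6a3 and the matrix gene Postn. Its counts and sums are therefore not separate from the matrix result. Of 12 fibroblast markers 11 were in the table and 9 tested, and 8 passed lower in VM-3055. Their summed level was 95.9 to 124 units in VM-3055 and 9021 to 9964 in MYC-2983 cells, and Postn made up nearly all of the MYC-2983 sum but little of the VM-3055 sum, with 7.39, 11.1, 8.49 and 10.5 units in VM-3055 against 9582, 9319, 8665 and 9603 units. The defining fibroblast markers Thy1, Dcn and Lum were at 0 or under the floor in VM-3055 and had 8.83, 8.82 and 2.42 units in MYC-2983, and Fap was not tested because too few libraries were above 0. Of 10 endothelial and 10 leukocyte markers 6 each were tested, 2 and 1 passed lower and 1 and 2 higher, and the sums were 102 to 115 against 180 to 225 units and 467 to 534 against 558 to 621 units. The part of other cell types in the matrix result was not tested.

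**Figure D3:**
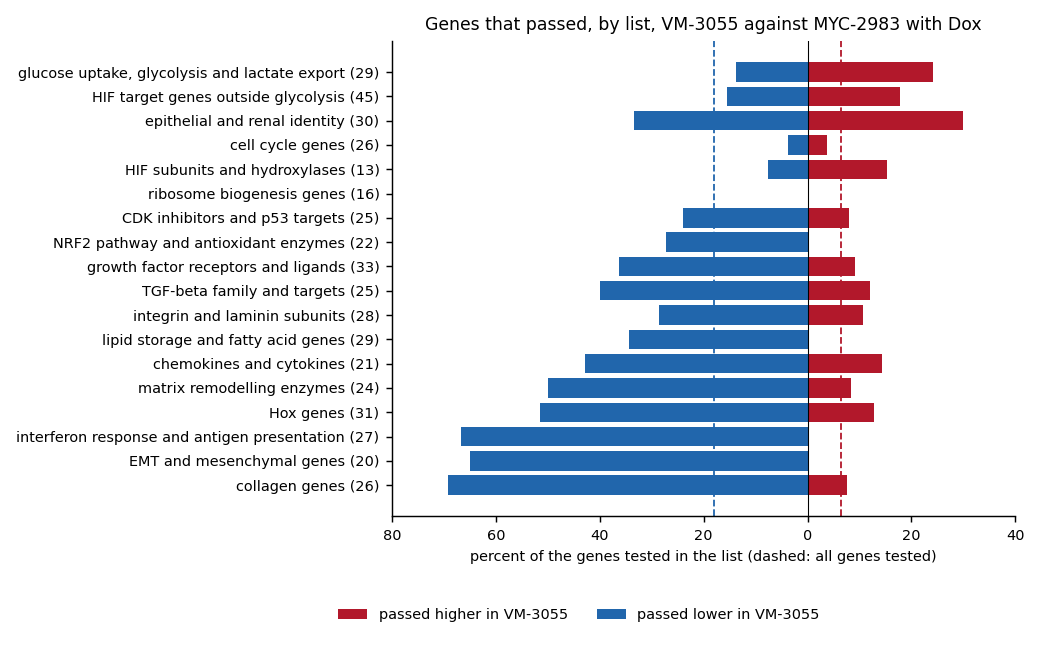
Percent of the genes tested in each list (number tested in brackets) that passed higher (red, to the right) or lower (blue, to the left) in VM-3055 against MYC-2983 cells with Dox, for lists with at least 13 genes tested. Dashed lines mark the shares over all genes tested, 6.54% higher and 18.1% lower. Of the lists shown, collagen, interferon and EMT genes have the highest shares of lower genes and no ribosome biogenesis gene passed. Lists were chosen with earlier results of these data known, so their order is a description.

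None of 16 ribosome biogenesis genes passed, and their median was −0.14. Nucleolin, Ncl, had 38274 and 44212 units, and Npm1 had 18784 and 22413 units in VM-3055 and MYC-2983 cells. Of 26 cell cycle genes 1 passed in each direction. Ccnd2, which encodes cyclin D2, had 73.4 against 3944 units, a log2 difference of −5.74, and Ccne2, which encodes a cyclin E, had 1373 against 643 units. The proliferation marker genes Mki67 (6180 and 4932 units) and Top2a (10468 and 12637 units) did not pass. Of 25 CDK inhibitors and p53 targets 2 passed higher and 6 lower. Cdkn1a, which encodes p21, had 549 against 157 units, and the imprinted inhibitor gene Cdkn1c had 1.06 against 31.7 units.

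Of 33 growth factor receptors and ligands tested, 12 passed lower and 3 higher in VM-3055, the latter being Vegfa, Tgfa and Ret. The receptor gene Fgfr1 had 75.5 against 907 units, and the AXL ligand gene Gas6 0.638 against 318 units. Met (5969 and 3979 units) and Axl (4268 and 2968 units), receptors linked to kidney cancer, and Egfr (671 and 1125 units) did not pass. Of 25 TGF-beta family genes and targets, 10 passed lower and 3 higher. All 3 TGF-beta ligand genes passed lower, with 45.9 against 285 units for Tgfb1, 233 against 800 for Tgfb2 and 81.8 against 1867 for Tgfb3, while the kidney morphogen gene Bmp7 passed higher with 199 against 12.3 units. Of 21 chemokine and cytokine genes tested, 9 passed lower and 3 higher. Ccl2, a monocyte attractant, had 54.5 against 660 units, and Il11 had 64.0 against 3.23 units.

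Of 27 interferon response and antigen presentation genes tested, 18 passed lower and none higher in VM-3055 cells, with a median of −1.69, and 9 of the 18 had at least 50 units in MYC-2983. Ifit1, a sensor of foreign RNA, was at 0 throughout VM-3055 against 113 to 178 units in MYC-2983 cells. Isg15, a ubiquitin-like modifier, had 3.40 to 4.24 against 54.7 to 94.9 units. The class I genes H2-K1 (987 and 1416 units) and B2m (3342 and 2473 units) did not pass. With quantile normalization 16 passed lower and 1 higher.

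Of 29 lipid genes tested 10 passed lower and none higher, 5 of them with at least 50 units in MYC-2983. Cpt1a, which admits fatty acids to mitochondria, had 106 against 928 units, and the adipogenic receptor gene Pparg 10.3 against 170 units. Plin2, a coat protein of lipid droplets, had 2446 and 1425 units and did not pass. Of 22 NRF2 and antioxidant genes tested 6 passed lower and none higher, with Nqo1 at 19.6 against 570 units and Gclc at 1107 against 3239 units. The gene of the factor itself, Nfe2l2, had 1590 and 1517 units and did not pass. With quantile normalization 6 lipid and 4 antioxidant genes passed lower, and none and 1 higher.

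Hox genes, which record position along the body axis, differed by cluster. Of 31 tested, 16 passed lower and 4 higher in VM-3055 cells. In the Hoxb cluster 6 of 9 passed lower and none higher, in Hoxc 6 of 8 lower and 1 higher, in Hoxd 4 of 4 lower, and in Hoxa 3 of 10 higher and none lower. Hoxb6 and Hoxb5 were at 0 throughout VM-3055 against 392 to 429 and 165 to 182 units in MYC-2983 cells, and Hoxb9 had 90.2 to 94.6 against 2586 to 2822 units. Hoxb2, Hoxb3 and Hoxb4, at the other end of the cluster, had log2 differences of −0.49, −0.27 and −0.44 and did not pass.

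The 15 largest rises and 15 largest falls were taken among genes that passed with at least 50 units in the higher line and no overlap of the lines. Besides Krt7 and Krt19, the genes highest in VM-3055 were Epb4.1l3, Pkd1l2, Tex13, Hmgcll1, Cdcp1, Iapp, Sox2, Sectm1a, Xlr, Il23a, Ptprq, Peg3 and Il24. Epb4.1l3, a membrane skeleton protein, had 1044, 944, 1002 and 1041 units in VM-3055 and was at 0 in all MYC-2983 libraries, at least 601-fold higher. Pkd1l2, of the polycystin family, had 893 ± 42.2 units and was at 0 in MYC-2983. Sox2, a transcription factor of stem cells, had 542 ± 38.3 against 2.84 ± 1.25 units, and the surface glycoprotein gene Cdcp1 had 1049 ± 29.4 against 4.06 ± 0.996 units. Peg3 is imprinted and had 699 ± 76.0 against 5.27 ± 1.02 units. Besides Serpinh1, Acta2, Postn, Lox and Fkbp10, the genes lowest in VM-3055 were H19, Odz3, Cd34, Myl9, Rftn1, Grb10, Ugt3a2, Dusp9, Camkv and Crip1. The imprinted RNA H19 had 0.739, 0, 0 and 0.877 units in VM-3055 against 4296, 5855, 6334 and 4731 units, at least 2016-fold lower, and the imprinted adaptor gene Grb10 had 0.398 against 908 ± 30.4 units. Odz3, a teneurin, was at 0 in VM-3055 and had 2661 ± 106 units in MYC-2983 cells. Cd34, a sialomucin, had 2.13 ± 1.54 against 3882 ± 293 units. In all, 42 genes whose MYC-2983 mean reached 200 units were at or under the floor in every VM-3055 library, and 5 genes the other way round.

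The comparison was repeated in 8 other libraries of the same lines, from which Dox had been withdrawn, so that no library is shared. One of them, VM-3055 replicate 2 without Dox, stood apart, with 36.6 M reads against 15.1 to 17.6 M for the other 3. Its squared differences from them were 4.96 to 8.48 times those of counting noise, against 2.01 to 3.02 among the others. Of 15182 genes tested, 3783 passed (24.9%), 1268 higher (8.35%) and 2515 lower (16.6%) in VM-3055. Of the 966 genes that passed higher with Dox, 949 were tested without it, 747 passed higher again and 2 passed lower. Of the 2668 lower genes, 2627 were tested, 1963 passed lower again and 6 passed higher. Without replicate 2, 1199 genes passed higher and 2533 lower, and of the genes that passed with Dox 712 of 921 passed higher again and 1965 of 2619 lower again. Vhl had 31 against 533 units without Dox, Egln3 5597 against 81.1 and Car9 397 against 27.2 units. On the HIF target list 14 of 44 passed higher without Dox and 8 lower, and on the glycolysis list 9 of 29 higher and 2 lower. Ldha passed without Dox, with a log2 difference of 1.38 against 0.79 with Dox. Vim (−0.89) and Zeb1 (−0.79) did not pass without Dox, and 11 of 20 EMT genes passed lower. Without replicate 2 the counts on these 3 lists did not move. Whether these differences change with Dox was not tested.

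VM tumours of 3 mice were set beside MYC tumours of 2 mice, which included mice with the numbers of the 2 lines, 2983 and 3055. The 2 libraries of mouse 2983 were averaged. No gene of 16085 passed in limma with 5 mice, while 2212 had an unadjusted p under 0.05, so counts of genes whose mice do not overlap and whose log2 difference exceeds 1 are given: 3.32% of genes higher and 10.7% lower in VM tumours. Of the genes that passed higher in VM-3055 cells, 876 were tested in tumours, 9.47% were higher in tumours by this rule and 15.6% lower. Of those that passed lower, 2581 were tested, 22.6% were lower and 3.18% higher.

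**Figure D4:**
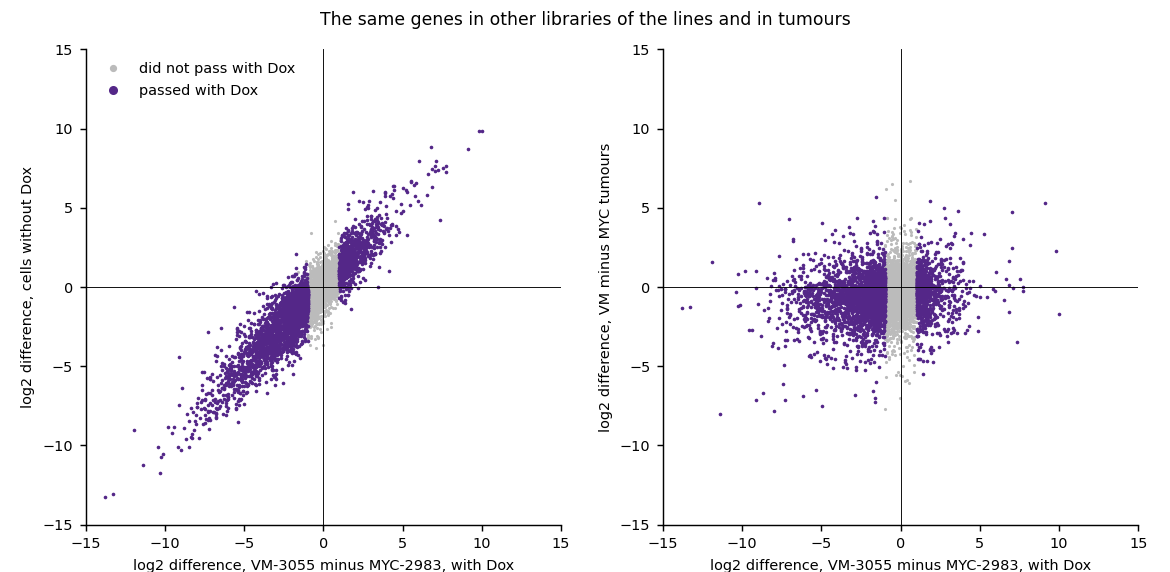
log2 differences between VM-3055 and MYC-2983 cells with Dox (x axis) against those in other libraries of the lines without Dox (left) and between VM and MYC tumours (right), 1 point per gene, purple for genes that passed with Dox. Of the higher genes tested 929 of 949 keep their sign without Dox and 364 of 876 in tumours.

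On the HIF target list 13 of 45 genes were higher in VM tumours by the rule above and 2 lower, and on the glycolysis list 13 of 29 and 1. Vhl had 79.9, 40.2 and 40.7 units in VM tumours and 560, 471 and 468 in MYC tumour libraries. Egln3 had 8108, 4896 and 7253 units against 356, 1204 and 938, Bnip3 15691, 10235 and 9792 against 1256, 3685 and 3120, and Slc16a3 6700, 6833 and 6297 against 39.3, 1672 and 474 units. None of these overlapped. Car9 did overlap, with 46.6, 1652 and 43.2 units in VM and 21.5, 611 and 564 in MYC tumours, and the highest value came from mouse 3055. Serpinh1 and Acta2, under the floor in VM-3055 cells, had 245 and 75.3 units in the tumour of mouse 3055, and Col4a1, low in the cells, had 11102 units. Krt7, high in VM-3055 cells, was at 0 there. In tumours fewer cells of a type and less RNA per cell cannot be told apart.

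For interferon genes 16 of 28 were lower in VM tumours by the rule and none higher, and for Hox genes 9 of 32 were lower and 1 higher. Hoxb5 to Hoxb9 were each lower in VM tumours, with log2 differences of −4.31 to −7.52. For collagens only 3 of 26 were lower and 2 higher, and for EMT genes 5 of 20 lower.

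VIM-3039 cells with Dox, a line with Vhl and Ink4a/Arf deleted, share the MYC-2983 controls, so values are only set side by side. Egln3 (2216 units), Bnip3 (2901), Vegfa (2260), Slc16a3 (10186) and Pdk1 (4259) had means above all 4 MYC-2983 libraries. Car9 (7.72 units) and Ldhb (922) had means below the lowest MYC-2983 library, Cdh2 had 4944 and Vim 33870 units, and Lox had 2071. Summed EMT genes had 149990 to 160450 units, against 53178 to 58129 in VM-3055 and 139230 to 159020 in MYC-2983. Summed collagen genes had 19915 to 21283, against 5569 to 6591 and 16922 to 17898 units. Summed fibroblast markers had 81.2 to 114 units. Summed interferon genes had 7500 to 7785, against 7079 to 7464 in VM-3055 and 8928 to 9617 in MYC-2983.

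Along the genome, over 10407 genes whose mean reached 50 units, the median log2 difference was −0.14, and chromosome medians are descriptions with no test. Chromosomes 8 (−0.56), 11 (−0.52), 15 (−0.42) and 16 (−0.39) lay lowest and chromosome 5 (0.20) highest. On chromosome 11, 88.1% of 880 genes were below 0 and 19.5% passed lower, against 61.4% and 11% of all these genes. Without Dox the same chromosomes had −0.51, −0.47, −0.43, −0.39 and 0.29, whereas in tumours they had −0.13, −0.06, −0.15, −0.06 and −0.09. In 950 overlapping windows of 50 neighbouring genes, medians ran from −0.80 to 0.76. The 17 windows with a median above 0.4 all lay on chromosome 5, between 3343893 and 67682700, and the other windows of that chromosome had −0.11 to 0.40. DNA copy number was not measured, and its part in these differences was not tested.

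**Figure D5:**
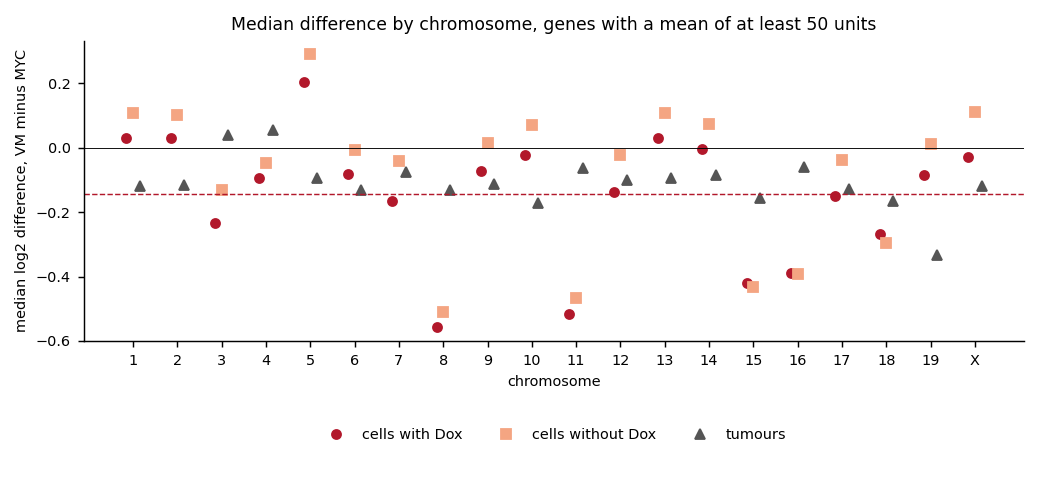
Median log2 difference (VM minus MYC) by chromosome over genes whose mean reached 50 units, in cells with Dox (circles), cells without Dox (squares) and tumours (triangles). The dashed line is the median of all these genes with Dox, −0.14. Chromosomes 8, 11, 15 and 16 lie lowest in both cell comparisons and chromosome 5 highest, and other chromosomes also lie on either side of the line.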

How the data were processed

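RNA of cultured lines and tumours was sequenced from TruSeq Stranded mRNA paired-end libraries. Per the submitters' processing notes and the study, the authors aligned reads with MapSplice to mm9, used Picard 1.64 and SAMtools, quantified UCSC genes with RSEM and brought the upper quartile of every library to 1000. The deposited values are this scaled signal per gene, not counts, and the strand setting of the counting is not given in the sources used here. The table holds 21703 genes, of which 3234 are at 0 everywhere, and 1 symbol in 2 rows was left out. No value column lacked a sample (0 columns). Whole reads were recovered from the steps between low values, with 94.4 to 95.5% of low values within 0.02 reads of a whole number in the 8 libraries, and gave the depth. Squared differences between replicates were 1.70 to 2.99 times those of counting noise, so none was taken for a copy. Counting sets the precision of low genes.

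Genes above 0 in at least 4 of 8 libraries (2 of 5 mice in tumours) were tested in limma 3.58.1 (R 4.3.3) on log2(value + 1) with a trended prior, two-sided, with Benjamini-Hochberg adjustment over all genes tested. On simulated reads with the depths of the 8 libraries, 100 of 100 genes changed by 1.5 and 100 of 100 changed by 3 on the log2 scale passed, as did 4 of 14711 unchanged genes, and 0 of 14935 with no change simulated. Changed genes were few, above a minimum mean count and equally often up and down, and all genes had the same small, assumed spread. The data differ on these points, so the counts check that the fit runs and do not measure its error rates here. Genes were named as engineered genes, as members of lists, or as the 15 largest rises and falls among genes that passed with at least 50 units in the higher line and no overlap of lines. Members and lists were chosen with earlier results of these data known. Gene positions are from gencode vM1 (mm9). Alternatives were pseudocounts, filters, TMM and quantile scaling, all cell groups in 1 fit, voom on recovered reads, single libraries left out and, chosen after seeing the data, edgeR 4.0.16 on recovered reads and a block by the S number that ends each title. Python 3.11.15 with scipy 1.17.1 gave the exact tests. The authors' own comparisons were not used. Examples of each list are named, and some results are not reported here.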

Additional observations from a re-analysis of the deposited data

Results flagged for a closer look

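In 10 of 286 groups of 4 libraries, 1 library of a named gene stood apart from the other 3 by the Dixon criterion, which by chance flags about 1 group in 20. In MYC-2983 cells with Dox these were Bnip3 in replicate 3 (377 units, the others 331 to 335), Bnip3l in replicate 1 (1390, the others 1284 to 1300), Esrp1 in replicate 2 (26.1, the others 9.50 to 11.9), Mmp13 in replicate 3 (1.63, the others 0.524 to 0.559) and Pfkfb3 in replicate 2 (679, the others 717 to 719). In VM-3055 cells they were Ccl2 in replicate 3 (58.6 units, the others 52.8 to 53.5), Cdcp1 in replicate 2 (1005, the others 1060 to 1066), Col3a1 in replicate 1 (2.96, the others 1.70 to 1.75), Tgfb1 in replicate 1 (37.7, the others 47.4 to 49.4) and Tgfb3 in replicate 4 (69.3, the others 84.3 to 87.2). None of these libraries reached the range of the other line.

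For 7 named genes all libraries of the cells differed one way and all mice of the tumours the opposite way, a contrast that was not itself tested. Krt7 was higher in VM-3055 cells (log2 difference 7.33) and lower in VM tumours (−3.49), and the same held for Lama3 (3.39 and −2.72), Epcam (1.90 and −3.75), Ocln (1.55 and −1.16) and Spint1 (1.20 and −2.75). Of these, Krt7, Epcam, Ocln and Spint1 are epithelial genes and Lama3 encodes an epithelial laminin chain. Ppp1r3c (−1.91 in cells and 1.51 in tumours) and Hmox1 (−1.07 and 1.48) had the reverse order.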

How the results depend on the processing

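With a pseudocount of 10 the number of genes that passed with Dox fell to 2314 (574 higher and 1740 lower), and without Dox 804 passed higher. Quantile normalization raised the genes that passed higher to 1937 with Dox and 2078 without it, and 2748 genes passed both with it and with the authors' scaling. Leaving out single libraries gave 3221 to 3613 genes with Dox and 3457 to 3736 without it. The lower genes with Dox, 2668 in the main fit, depended on the line. They numbered 2260 to 2290 without a MYC-2983 library and 2640 to 2723 without a VM-3055 library. These fits still required 4 libraries above 0, which a gene found only in MYC-2983 cells cannot meet once a MYC-2983 library is left out. In tumours, where no gene passed, 33 passed (10 higher and 23 lower) with the 2 libraries of mouse 2983 taken as separate, 2 passed without mouse 2917 (2 higher) and 10 without mouse 2983 (9 higher and 1 lower). These last fits leave 1 MYC mouse, which is assumed to vary like the VM mice. The range over tumours left out was 0 to 10 in all, 0 to 9 higher and 0 to 1 lower. edgeR on recovered reads, chosen after seeing the data, passed 3640 genes with Dox. Of 2815 values of 160 named genes under these alternatives none changed direction, 23 no longer passed and 14 passed newly. Of 720 list counts 52 moved by more than 1.5 times. Causes were not tested. Titles of both lines end in the same S numbers, which no label calls a shared culture or day. Deviations of same-numbered libraries correlated at −0.13 to 0.018 with Dox and −0.0017 to 0.12 without it, so the numbers were not taken to pair the samples, and a replicate block by S number, chosen after seeing the data, passed 3645 genes with Dox (971 higher and 2674 lower) and 3790 without it. Low genes are limited by depth, since 3 reads are 1.57 to 2.63 units.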
